A study of Mus musculus with 8 samples.

Results

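Enterocytes are the absorptive cells that cover the intestinal villi, and 35 genes of their differentiation and brush border were followed in sorted mouse intestinal stem cells. The genes were taken from a given list of absorptive-cell products and comprise 10 genes of lipid handling, 4 disaccharidases, 6 peptidases and phosphatases, 6 solute transporters, 7 genes of microvillus structure and 2 others, Krt20 and Lypd8. All 35 had a named probe among the 21368 symbols on the array, and 32 gave a probe bright enough to test, of 25404 features tested in all. Stem cells at the crypt base divide and give rise to progenitors that leave the crypt and mature on the villus. A maturing enterocyte builds microvilli on bundled actin, anchors digestive enzymes in their membrane, and takes up sugars, amino acids and lipids through dedicated carriers. Absorbed fat is bound by fatty acid-binding proteins, rebuilt into triglyceride and exported with apolipoproteins as chylomicrons.

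The cells of both groups had been sorted for high signal of the Lgr5-EGFP-Ires-CreERT2 reporter allele. Irf2_AhcKO samples came from Irf2fl/fl mice that carried the Ah-Cre transgene and this reporter, and control samples from Irf2fl/fl mice with the reporter and without Ah-Cre, with 4 samples in each group. IRF2 regulates transcription through interferon response elements in DNA, and the comparison asks how stem cells differ once its gene is deleted. Ah-Cre is expressed from a promoter that xenobiotics induce, so β-naphthoflavone switches deletion on in more tissues than the epithelium alone. Both groups received β-naphthoflavone on 5 consecutive days and cells were taken 1 month later. For control replicates 3 and 4 the scanner data are named with Ah-Cre too, and the groups used here are those of the sample labels. The design text speaks of 4 independent mice and also of 2 biological replicates, so the p-values cover only how these samples vary.

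Each sample was hybridised to one 1-colour Agilent array of 62976 spots. Values are log2 processed signal minus the array's 75th percentile, so 0 is the brightness that 75% of the spots do not exceed, and differences are Irf2_AhcKO minus control. Since probes differ in how brightly they hybridise, a value is compared between arrays, and its order among genes is not read as an order of expression. Per array, 61.4% to 69.8% of spots exceeded background well and none was saturated, and the number of arrays limits the precision. Slide 1 held replicates 1 and 2 of both groups and slide 2 held replicates 3 and 4. The slide entered the model as a term, since 35.5% of features differed between slides. The probe for Irf2 itself did not separate the groups, with 1.12, 1.1, 0.70 and 0.73 on Irf2_AhcKO arrays, against 0.99, 0.55, 0.37 and 0.64 on control arrays (difference 0.27, SE 0.12, limma adjusted p = 0.429). The sources used here do not say whether this probe lies inside the deletion, so it checks nothing. Of 12 stem cell markers, 11 were measured, all well above background on all 8 arrays, and none had an unadjusted p below 0.05. Slc12a2 averaged 5.77 ± 0.12 in Irf2_AhcKO cells and 5.78 ± 0.11 in control cells (SD, n = 4 each). Cdca7 averaged 4.61 ± 0.13 in Irf2_AhcKO cells and 4.66 ± 0.11 in control cells. For Axin2 the averages were 3.58 ± 0.15 in Irf2_AhcKO cells and 3.69 ± 0.19 in control cells. Lgr5, which marked the sort, differed by -0.29 (SE 0.16, limma adjusted p = 0.502). Control replicate 4 stood apart from the other control arrays for 3 enterocyte genes, Sis, Abcg5 and Slc3a1, and their differences are given with and without it.

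In Irf2_AhcKO stem cells the enterocyte genes lay lower more often than higher, by small amounts, and none differed past the threshold. For Fabp2, Fabp1, Alpi, Abcg5 and Myo1a all 4 Irf2_AhcKO arrays lay below all 4 control arrays, by a narrow gap in each. The highest Irf2_AhcKO array and the lowest control array were at 6.28 and 6.37 for Fabp2, and at 1.27 and 1.31 for Fabp1. Mgam and Anpep were separated in the opposite direction. No member passed a limma adjusted p of 0.05, while 25 of the 25404 features did (0.0984%), 14 of them higher (0.0551%) and 11 lower (0.0433%). The smallest adjusted p among the members was 0.12, for Fabp2. With the replicate number as a block in place of the slide no feature passed at all, and 3293 had an unadjusted p below 0.05.

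At an unadjusted p below 0.05, 12 of the 32 members were lower in Irf2_AhcKO (37.5%) and 2 were higher (6.25%). Over all features the shares were 5.75% lower and 5.98% higher. The groups did not overlap for 5 members lower in Irf2_AhcKO (Fabp1, Fabp2, Abcg5, Alpi and Myo1a) and 2 members higher (Mgam and Anpep), 21.9% of the members, against 3.85% of all features (2.11% lower and 1.74% higher). The log2 difference was negative for 20 members and positive for 12, so 62.5% were negative, against 50.5% of all features. The median difference of the members was -0.17 and that of all features 0.00. These shares describe a list that was chosen with results of these arrays known, and no test of the list was made. Without Irf2_AhcKO replicate 1 or without Irf2_AhcKO replicate 4, 7 members in place of 12 were lower at an unadjusted p below 0.05, against 4.98% and 4.5% of all features in those fits. In bulk samples fewer cells of a type and less RNA per cell cannot be told apart.

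**Figure D1:**
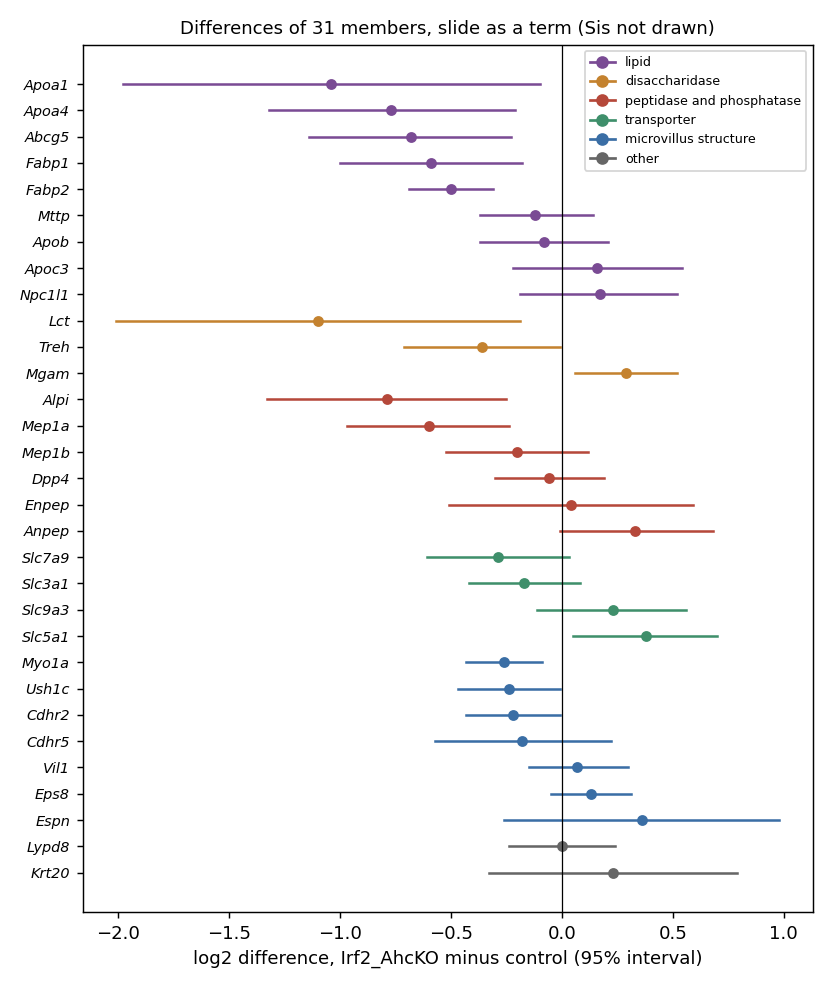
Log2 difference (Irf2_AhcKO minus control, horizontal axis) of 31 tested members, ordered by role, with Sis not drawn. Points are the limma estimates with the slide as a term, lines their 95% intervals without adjustment, and colours the roles. Intervals of 12 members lie below 0, among them 5 lipid genes, and those of Mgam and Slc5a1 lie above it.

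The plot of differences by role shows differences of both signs in 5 of the 6 roles. Of the 9 lipid members tested, 7 had a negative difference (77.8%, against 50.5% of all features), and their median was -0.50. At an unadjusted p below 0.05, 5 were lower (55.6%, against 5.75% of all features). The disaccharidases had a median of -0.73, midway between Lct at -1.10 and Treh at -0.36, and the 6 peptidases and phosphatases one of -0.13. The 7 microvillus genes had a median of -0.18. The 4 transporters tested stood at 0.03, and Krt20 and Lypd8 at 0.12.

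The sequence around the transcription start is shown for 4 members because the results turn on them or because they hold the letters of an interferon response element, the kind of site that IRF2 binds. Alpi and Dpp4 were the members whose windows held those letters, and Fabp2 and Abcg5 are 2 of the genes with separated groups. The windows run from 250 bases before to 50 bases after the start, 5′ to 3′ on the gene's strand, from RefSeq on GRCm38.p6. Capitals mark matches to 2 copies of GAAA with any 2 bases between them (interferon response element), CAAAGTCCA (a site of the enterocyte regulator HNF4) and TTTATNG (a site of the CDX factors), searched on both strands, and no matches overlapped in these windows.
Alpi, chr1:87101557-87101856, minus strand: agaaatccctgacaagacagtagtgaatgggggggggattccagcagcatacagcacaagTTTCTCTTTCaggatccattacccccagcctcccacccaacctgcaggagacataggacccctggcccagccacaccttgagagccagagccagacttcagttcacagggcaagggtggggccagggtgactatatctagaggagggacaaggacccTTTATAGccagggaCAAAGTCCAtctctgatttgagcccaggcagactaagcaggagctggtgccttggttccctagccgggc
Dpp4, chr2:62412182-62412481, minus strand: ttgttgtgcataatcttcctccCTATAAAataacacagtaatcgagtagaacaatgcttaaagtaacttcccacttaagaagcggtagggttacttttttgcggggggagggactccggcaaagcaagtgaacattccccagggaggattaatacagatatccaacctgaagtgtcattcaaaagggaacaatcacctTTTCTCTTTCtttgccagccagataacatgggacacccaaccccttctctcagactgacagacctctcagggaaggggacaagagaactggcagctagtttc
Fabp2, chr3:122894822-122895121, plus strand: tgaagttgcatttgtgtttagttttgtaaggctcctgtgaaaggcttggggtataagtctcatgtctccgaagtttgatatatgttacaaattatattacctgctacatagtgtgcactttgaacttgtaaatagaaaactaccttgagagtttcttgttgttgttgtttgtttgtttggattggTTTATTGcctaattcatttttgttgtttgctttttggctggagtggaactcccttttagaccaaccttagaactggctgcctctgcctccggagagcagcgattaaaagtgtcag
Abcg5, chr17:84682962-84683261, minus strand: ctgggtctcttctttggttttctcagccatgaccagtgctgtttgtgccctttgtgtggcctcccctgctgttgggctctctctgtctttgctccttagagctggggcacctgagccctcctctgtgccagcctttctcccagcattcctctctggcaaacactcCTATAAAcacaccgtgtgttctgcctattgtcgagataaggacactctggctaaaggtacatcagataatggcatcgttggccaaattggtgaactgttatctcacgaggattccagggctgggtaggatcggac

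In the Alpi window the interferon response element letters begin 190 bases before the start, on the opposite strand, with the CDX letters at 33 and the HNF4 letters at 19 bases before it. In the Dpp4 window the interferon response element letters begin 52 bases before the start, also on the opposite strand. The table held windows for 32 of the 35 members (not for Apoc3, Eps8 and Mep1b). The interferon response element letters were in 2 of the 32 (6.25%), and in 3.44% of all 32851 windows. CAAAGTCCA was in 3 members (Alpi, Slc3a1 and Treh, 9.38%), and in 0.475% of all windows. TTTATNG was in 12 members (37.5%), and in 10.9% of all windows. A member may have more than 1 window, and these 32 had 37. The member shares count genes and the other shares count windows. By window, the letters were in 2, 3 and 12 of the 37, in the order given. Such matches describe letters in a window and say nothing of whether a factor is bound. Abcg5 and Abcg8 are transcribed in opposite directions from neighbouring starts. Their windows share 209 bases, which hold the TTTATNG match of Abcg5, so that site counts for both. Apoa1, Apoc3 and Apoa4 lie next to each other on chromosome 9.

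Among the genes that bind and carry fat inside the cell, both fatty acid-binding proteins had separated groups. Fabp2, the intestinal fatty acid-binding protein, had 6.28, 6.16, 5.92 and 5.94 on Irf2_AhcKO arrays, against 6.71, 6.63, 6.37 and 6.59 on control arrays. Every Irf2_AhcKO array lay below every control array, and the difference of -0.50 (SE 0.08) is a signal ratio of 0.707 (limma adjusted p = 0.12). Its unadjusted p of 0.000456 was the smallest of the members. With normexp background correction Fabp2 passed the threshold, at -0.52 (limma adjusted p = 0.0313), as the only member to do so, and over all alternatives its adjusted p ranged from 0.0313 to 0.899. Fabp1, the liver-type fatty acid-binding protein that enterocytes also make, had 0.85, 1.21, 1.27 and 0.66 on Irf2_AhcKO arrays, against 1.31, 1.72, 1.78 and 1.56 on control arrays. These groups did not overlap either, though the highest Irf2_AhcKO array and the lowest control array lay close together (difference -0.59, SE 0.17, limma adjusted p = 0.318).

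The 4 apolipoproteins had differences between -1.04 and 0.16. Apoa1, the main protein of high-density lipoprotein, had -1.93, -2.01, -1.02 and -1.55 on Irf2_AhcKO arrays, against -0.50, 0.02, -0.24 and -1.63 on control arrays. Control replicate 4 was as low as the Irf2_AhcKO arrays, so the groups overlapped (difference -1.04, SE 0.40, limma adjusted p = 0.394). Without that array the other control arrays all lay above the Irf2_AhcKO arrays, and the difference was -1.46 (SE 0.23, limma adjusted p = 0.132). The array did not stand apart for Apoa1 by the rule used for Sis, Abcg5 and Slc3a1. This fit was picked with the values seen, and leaving out each array in turn gave -1.46 to -0.80. The difference was -1.73 on slide 1 and -0.35 on slide 2, and their difference had an unadjusted p of 0.0765. Apoa4, carried on chylomicrons, had -0.53, -1.33, -0.97 and -0.79 on Irf2_AhcKO arrays, against -0.29, 0.28, 0.03 and -0.59 on control arrays. Only the brightest Irf2_AhcKO array exceeded the dimmest control array (difference -0.77, SE 0.24, limma adjusted p = 0.33).

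Apoc3, an inhibitor of lipoprotein lipase, gave different answers from its 2 probes. The brighter one, which represents the gene, ranged from -1.5 to -0.86 on Irf2_AhcKO arrays and from -1.60 to -1.23 on control arrays (difference 0.16, SE 0.16, limma adjusted p = 0.694). The other probe, for another transcript of the gene, differed by -0.98 (SE 0.24, limma adjusted p over all probes 0.272). Its direction is that of its neighbours Apoa1 and Apoa4.

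The assembly and sterol genes showed small differences apart from Abcg5. Apob, the structural protein of chylomicrons, ranged from 0.72 to 1.82 on Irf2_AhcKO arrays and from 0.61 to 1.96 on control arrays (difference -0.08, SE 0.12). Its level followed the slide, being 1.09 higher on slide 2 (limma adjusted p = 0.00096). Mttp, which loads lipid onto apolipoprotein B, ranged from 1.01 to 1.26 on Irf2_AhcKO arrays and from 1.1 to 1.47 on control arrays (difference -0.12, SE 0.11). Npc1l1, which takes up cholesterol at the apical membrane, differed by 0.17 (SE 0.15) and ranged from -1.18 to -0.88 on Irf2_AhcKO arrays and from -1.58 to -0.75 on control arrays.

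Abcg5, one partner of the transporter that returns sterols to the lumen, had -2.41, -2.28, -1.75 and -1.99 on Irf2_AhcKO arrays, against -1.70, -1.59, -1.67 and -0.74 on control arrays. The groups were separated narrowly, and control replicate 4 was the brightest (difference -0.68, SE 0.19, limma adjusted p = 0.295). Without control replicate 4 the difference was -0.50. Its partner Abcg8 was not well above background on any array and was not tested. The summed linear signal of the 9 lipid members, put back on the log2 scale, lay between 6.13 and 6.41 on Irf2_AhcKO arrays and between 6.58 and 6.83 on control arrays. That sum is mostly the Fabp2 probe, which alone had 5.92 to 6.28 on Irf2_AhcKO arrays and 6.37 to 6.71 on control arrays. The mean log2 level over the 9 was 0.15 to 0.47 on Irf2_AhcKO arrays and 0.49 to 0.77 on control arrays.

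**Figure D2:**
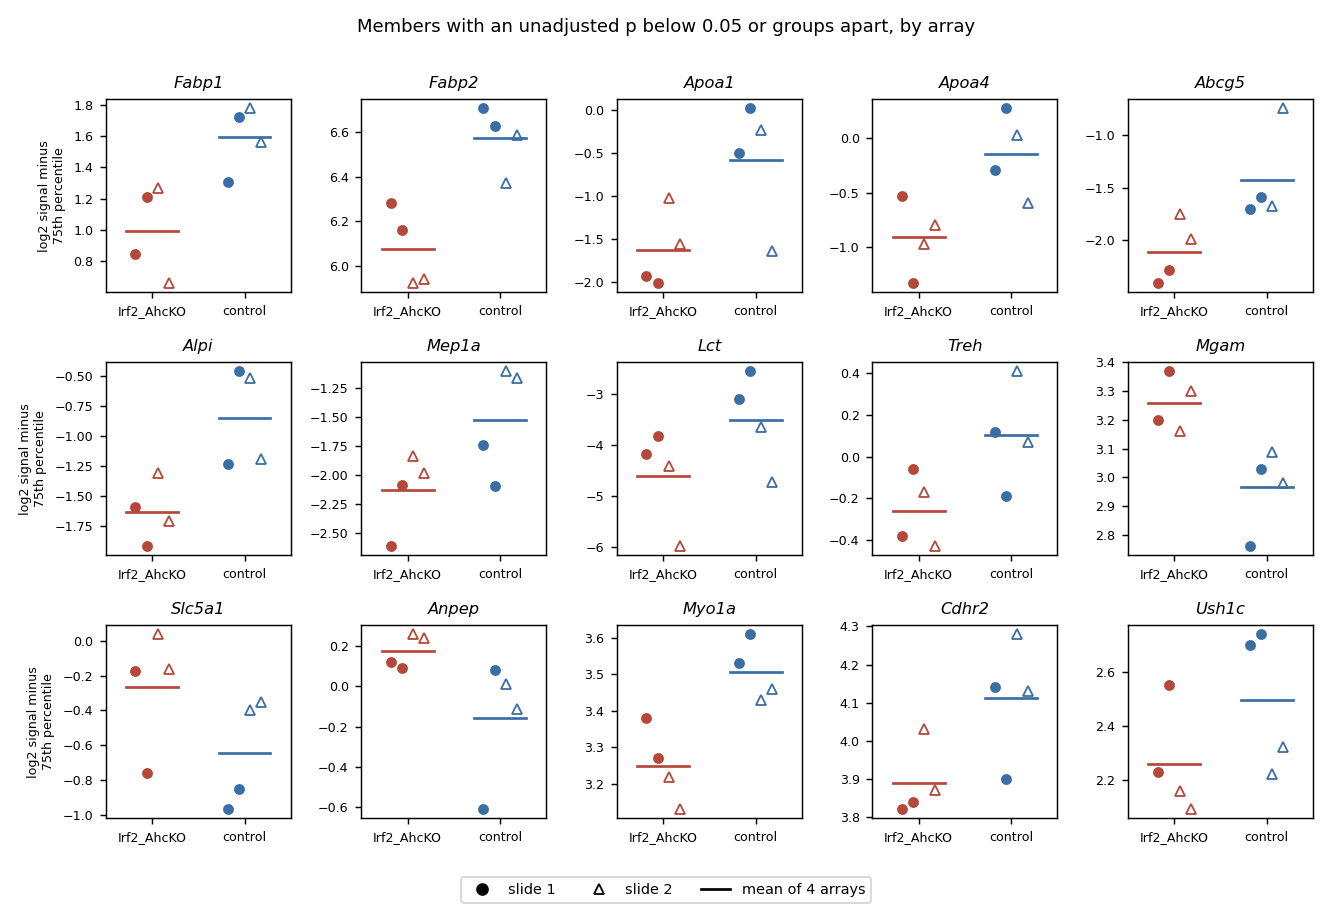
Log2 signal minus the array's 75th percentile (vertical axis, own scale per gene) of 15 members, with Irf2_AhcKO arrays left in red and control arrays right in blue. Circles are slide 1, triangles slide 2 and lines the mean of 4 arrays. The groups lie apart for Fabp1, Fabp2, Abcg5, Alpi and Myo1a, lower in Irf2_AhcKO, and for Mgam and Anpep, higher in Irf2_AhcKO.

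In the plot of single arrays the values of every gene but Apoa1 and Lct span under 2 log2 units. For Ush1c, Apoa4, Cdhr2 and Slc5a1 the overlap lies between the slides and not within them.

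The 4 disaccharidases cut dietary sugars at the brush border, and the value of Sis is dominated by 1 array. Sis, sucrase-isomaltase, had -2.43, -2.53, -1.57 and -2.62 on Irf2_AhcKO arrays, against -1.74, -1.66, -0.79 and 10.42 on control arrays. Control replicate 4 was the brightest by 11.21 log2 units, the widest such gap of the 25404 features. The probe is a single spot, whose processed signal was 320000 on control replicate 4. On the 4 Irf2_AhcKO arrays it was 37.0 to 76.0, and on the remaining 3 control arrays 67.2 to 129. On control replicate 4 the spot ranked 1 among all spots of its array, and the scanner software marked it neither as an outlier nor as saturated. Such isolated brightness was rare, with a gap of at least 2 log2 units to the next array in 39 features, of at least 5 in 6 and of at least 8 in 3.

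The fitted Sis difference of -3.85 (SE 2.40, limma adjusted p = 0.542) therefore describes 1 array more than the group. Without control replicate 4 it was -0.99 (SE 0.27, limma adjusted p = 0.223). On slide 1, where that array does not enter, it was -0.79, and on slide 2 it was -6.91. Even among the other 7 arrays the groups overlapped, since Irf2_AhcKO replicate 3 was brighter than 2 control arrays, which were on the other slide.

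**Figure D3:**
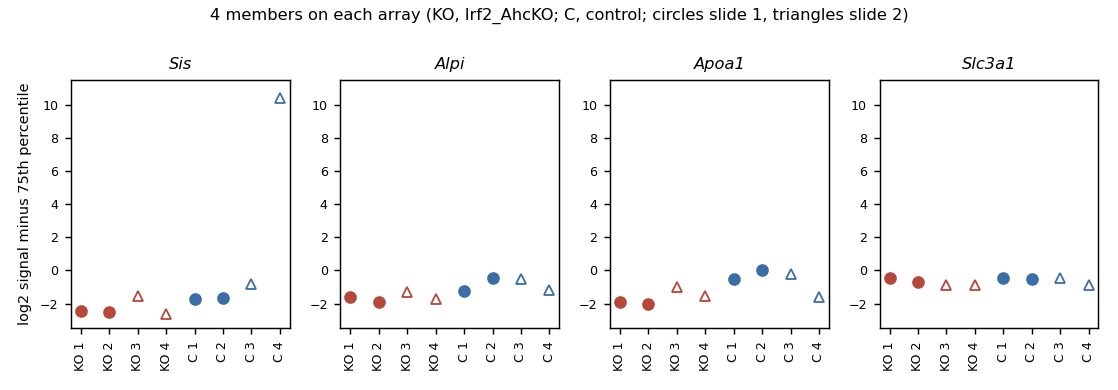
Log2 signal minus the array's 75th percentile (vertical axis, 1 scale for all panels) of Sis, Alpi, Apoa1 and Slc3a1 on each Irf2_AhcKO array (KO) and each control array (C), with circles for slide 1 and triangles for slide 2. Control replicate 4 has Sis at 10.42, and the other 7 arrays lie between -2.62 and -0.79, while on that array Alpi is at -1.19, Apoa1 at -1.63 and Slc3a1 at -0.86.

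The panels for Sis, Alpi, Apoa1 and Slc3a1 show that control replicate 4 was not bright for enterocyte genes in general. It was the lowest control array for Apoa1 and Slc3a1, and the highest for Abcg5.

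Lct, lactase, had -4.18, -3.83, -4.41 and -5.99 on Irf2_AhcKO arrays, against -3.10, -2.55, -3.65 and -4.72 on control arrays. The probe was dim, well above background on 2 of 4 Irf2_AhcKO and 3 of 4 control arrays, and the groups overlapped (difference -1.10, SE 0.39, limma adjusted p = 0.365). With normexp background correction the Lct difference shrank to -0.21. Treh, trehalase, had -0.38, -0.06, -0.17 and -0.43 on Irf2_AhcKO arrays, against 0.12, -0.19, 0.41 and 0.07 on control arrays. Only control replicate 2 lay within the Irf2_AhcKO range (difference -0.36, SE 0.15, limma adjusted p = 0.416).

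Mgam, maltase-glucoamylase, which like Sis releases glucose from starch fragments, had the opposite sign. It had 3.20, 3.37, 3.16 and 3.30 on Irf2_AhcKO arrays, against 2.76, 3.03, 3.09 and 2.98 on control arrays. All Irf2_AhcKO arrays were above all control arrays, and a second probe of the gene gave 0.26 beside the 0.29 of the first (SE 0.10, limma adjusted p = 0.361). The brush border disaccharidases thus held differences of both signs.

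Among the enzymes of the brush border membrane, Alpi and Mep1a had negative and Anpep a positive difference. Alpi, the intestinal alkaline phosphatase that removes phosphate from bacterial lipopolysaccharide, had -1.59, -1.92, -1.31 and -1.71 on Irf2_AhcKO arrays, against -1.23, -0.46, -0.52 and -1.19 on control arrays. The groups were narrowly separated, and the signal ratio was 0.579 (difference -0.79, SE 0.23, limma adjusted p = 0.311). Mep1a, the alpha subunit of the protease meprin, had -2.62, -2.09, -1.84 and -1.98 on Irf2_AhcKO arrays, against -1.74, -2.10, -1.10 and -1.16 on control arrays. Control replicate 2 fell within the Irf2_AhcKO range (difference -0.60, SE 0.15, limma adjusted p = 0.27). With normexp background correction the difference was -0.33 for Mep1a and -0.51 for Alpi, and for Abcg5 and Apoa1 it was -0.41 and -0.67.

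Anpep, aminopeptidase N, had 0.12, 0.09, 0.26 and 0.24 on Irf2_AhcKO arrays, against -0.61, 0.08, 0.01 and -0.11 on control arrays. The groups barely missed overlapping, and control replicate 1 was the lowest (difference 0.33, SE 0.15, limma adjusted p = 0.436). Without that array the Anpep difference was 0.19. Mep1b, the beta subunit of meprin, differed by -0.20 (SE 0.13) and ranged from 0.84 to 1.38 on Irf2_AhcKO arrays and from 1.17 to 1.58 on control arrays. Dpp4, dipeptidyl peptidase 4, differed by -0.06 (SE 0.10, 95% interval -0.30 to 0.19), and its window is the other that holds interferon response element letters. Enpep, aminopeptidase A, differed by 0.04 (SE 0.23, 95% interval -0.51 to 0.59), so differences of either sign within that interval remain possible.

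The transporters had no group pattern in common. Slc5a1, the sodium-coupled glucose carrier, had -0.17, -0.76, 0.04 and -0.16 on Irf2_AhcKO arrays, against -0.97, -0.85, -0.40 and -0.35 on control arrays. Irf2_AhcKO replicate 2 fell within the control range and the other 3 lay above it (difference 0.38, SE 0.14, limma adjusted p = 0.375). Without Irf2_AhcKO replicate 1 the difference was 0.25. Slc7a9 and Slc3a1 form the carrier for cystine and basic amino acids. Slc7a9 ranged from -0.54 to 0.02 on Irf2_AhcKO arrays and from -0.21 to 0.21 on control arrays (difference -0.29, SE 0.14, limma adjusted p = 0.451).

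Slc3a1 had -0.47, -0.68, -0.90 and -0.90 on Irf2_AhcKO arrays, against -0.44, -0.50, -0.47 and -0.86 on control arrays. Its low control array was replicate 4, and the difference was -0.17 (SE 0.11, limma adjusted p = 0.538). It was -0.24 without control replicate 4 and -0.08 without control replicate 3. Slc9a3, the apical sodium-proton exchanger, differed by 0.23 (SE 0.14) and was well above background on 4 of 4 Irf2_AhcKO and 3 of 4 control arrays. The peptide carrier Slc15a1 was well above background on 1 array, a control, and the neutral amino acid carrier Slc6a19 on none, so neither was tested.

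Genes that build the microvillus had differences between -0.26 and 0.36. Myo1a, the myosin that ties the actin core to the membrane, had 3.38, 3.27, 3.22 and 3.13 on Irf2_AhcKO arrays, against 3.53, 3.61, 3.43 and 3.46 on control arrays. The groups did not overlap, and the difference of -0.26 (SE 0.07) is a signal ratio of 0.835 (limma adjusted p = 0.29). Cdhr2, a cadherin that links the tips of neighbouring microvilli, had 3.82, 3.84, 4.03 and 3.87 on Irf2_AhcKO arrays, against 4.14, 3.90, 4.28 and 4.13 on control arrays. Irf2_AhcKO replicate 3 exceeded the lowest control array, so the groups overlapped (difference -0.22, SE 0.09, limma adjusted p = 0.41). Cdhr5, the cadherin that pairs with it, differed by -0.18 (SE 0.17).

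Ush1c, the scaffold harmonin that anchors these cadherins, had 2.23, 2.55, 2.16 and 2.09 on Irf2_AhcKO arrays, against 2.70, 2.74, 2.22 and 2.32 on control arrays. Both groups were lower on slide 2, where the Irf2_AhcKO arrays still lay below the control arrays (difference -0.24, SE 0.10, limma adjusted p = 0.41). A second Ush1c probe gave -0.11 (SE 0.15). The actin bundlers villin (Vil1) and espin (Espn) differed by 0.07 (SE 0.09) and 0.36 (SE 0.26), and Espn spanned -1.54 to 0.15 on the Irf2_AhcKO arrays alone. Eps8, which caps actin filaments at microvillus tips, gave 0.13 (SE 0.08) from its brighter probe and -0.29 (SE 0.14) from a dimmer one. The summed linear signal of the 7 microvillus members was between 5.28 and 5.41 on Irf2_AhcKO arrays and between 5.45 and 5.55 on control arrays, on the log2 scale and weighted toward the brighter probes. The mean log2 level over the 7 overlapped, at 1.86 to 2.16 on Irf2_AhcKO arrays and 1.98 to 2.09 on control arrays.

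The last 2 members are not brush border parts. Krt20, a keratin of mature intestinal epithelium, ranged from 0.94 to 1.63 on Irf2_AhcKO arrays and from 0.57 to 1.39 on control arrays (difference 0.23, SE 0.24). Lypd8, a secreted and membrane-anchored protein that keeps motile bacteria off the epithelium, had a difference of 0.00 (SE 0.10, 95% interval -0.24 to 0.24).

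**Figure D4:**
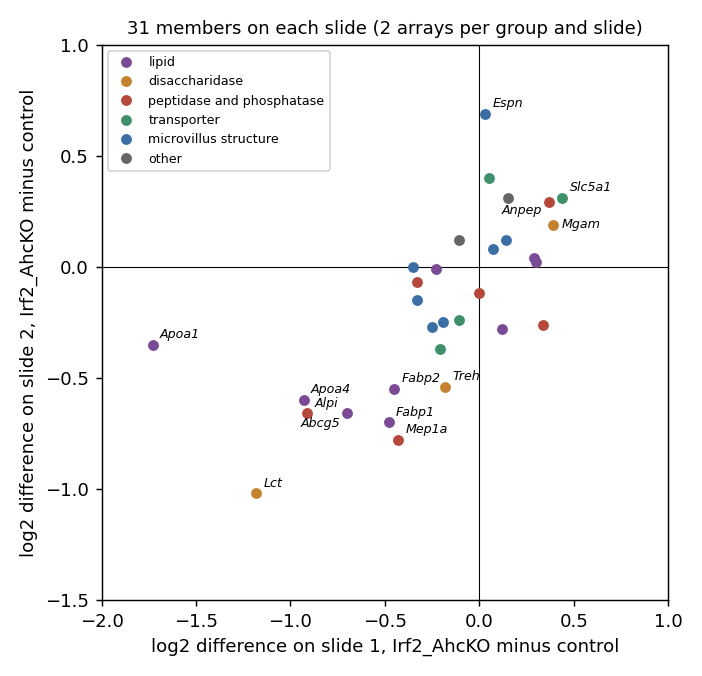
Log2 difference (Irf2_AhcKO minus control) on slide 1 (horizontal axis) and on slide 2 (vertical axis) of 31 tested members, with 2 arrays per group and slide and colours for the roles. Sis is not drawn. The sign is the same on both slides for 27 of the 31, with Apoa1 at -1.73 and -0.35 and Espn at 0.03 and 0.69 the most unequal of those named.

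The slides are the only technical batches known here, and each holds both groups. Counting Sis, 18 of the 32 members were negative on both slides and 10 positive on both, and the median was -0.19 on each slide. As shares, 56.2% of the members were negative on both slides, against 31.7% of all features, and 31.2% were positive on both, close to the 30.6% of all features. A high share negative on both slides was not particular to the members. It was 54.5% for stem cell markers, 71.4% for goblet cell markers and 66.7% for genes shared by all epithelial cells. Enteroendocrine markers had 33.3%, tuft cell markers 20% and Paneth cell markers 0%. Members whose level depended on the slide numbered 9 of 32 (28.1%), close to the 35.5% of all features. No feature showed a difference between the slides in the effect of group past a limma adjusted p of 0.05, and 1091 (4.29%) had an unadjusted p below 0.05. On slide 1, without the controls whose scanner data names mention Ah-Cre, 6 members were lower at an unadjusted p below 0.05, against 4.4% of all features. On slide 2 there were 3 such members, against 2.33% of all features. Between the slides Treh differed by -0.18 on slide 1 and -0.54 on slide 2, Mgam by 0.39 on slide 1 and 0.19 on slide 2, and Ush1c by -0.33 on slide 1 and -0.15 on slide 2.

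Beyond the members, 84 other genes of the same functions were listed and 76 were measured. Of these 1 passed the threshold. At an unadjusted p below 0.05, 13 were lower (17.1%, against 5.75% of all features) and 3 higher (3.95%, against 5.98%). A negative difference was found for 50 (65.8%, against 50.5%), and the median was -0.09. The gene that passed was Asah2, the brush border ceramidase that breaks down dietary sphingolipid. Asah2 had -3.19, -2.84, -3.20 and -3.02 on Irf2_AhcKO arrays, against -1.95, -2.15, -2.21 and -2.15 on control arrays. The groups were far apart for their spread, and Asah2 fell by 0.95 in log2 (SE 0.10, limma adjusted p = 0.0439). The call was lost with the replicate block (limma adjusted p = 0.154) and without any 1 of the 8 arrays. With normexp background correction Asah2 passed at -0.38 (limma adjusted p = 0.0396), and over all alternatives its adjusted p ranged from 0.0247 to 0.61.

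The other brush border hydrolases measured were 8 of 13, with a median of -0.47. At an unadjusted p below 0.05, 3 of them were lower (37.5%, against 5.75% of all features). Besides Asah2 these were Mme, the peptidase neprilysin, at -0.55 (SE 0.11), and Naaladl1, another peptidase, at -0.54 (SE 0.14), both with groups that did not overlap. The mean over the Mme probes gave -0.86, and Naaladl1 had -0.82 on slide 1, -0.25 on slide 2 and -0.29 with normexp. Among 14 other lipid genes, Rbp2 had the largest difference of those named, at -0.88 (SE 0.18, limma adjusted p = 0.189). Rbp2 carries absorbed retinol, and it had -0.47, -1.13, -0.98 and -1.09 on Irf2_AhcKO arrays, against -0.08, 0.29, 0.07 and -0.44 on control arrays. Dgat2 and Dgat1, which complete triglyceride synthesis, had -0.55 (SE 0.19) and -0.28 (SE 0.09). The 14 genes had a median of -0.18. At an unadjusted p below 0.05, 3 were lower (21.4%, against 5.75% of all features) and none higher. Dgat2 had -0.92 on slide 1, -0.18 on slide 2 and -0.34 with normexp.

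Among 20 other transporters 4 were lower at an unadjusted p below 0.05 (20%, against 5.75% of all features) and none higher, with a median of -0.24. The amino acid carrier Slc7a8 had -0.42 (SE 0.11), the chloride-bicarbonate exchanger Slc26a3 -0.39 (SE 0.11) and the bile acid exporter subunit Slc51b -0.98 (SE 0.35). The Slc51b difference was -1.73 on slide 1 and -0.23 on slide 2 (unadjusted p of their difference 0.0166), and -0.21 with normexp. Slc26a3 had -0.16 on slide 1, -0.61 on slide 2 and -0.15 with normexp. Of 16 other microvillus genes 3 were higher (18.8%, against 5.98% of all features) and 1 lower (6.25%, against 5.75%), with a median of -0.03. Higher were Pls1, the actin bundler plastin 1, at 0.42 (SE 0.13), Slc9a3r1, a scaffold of apical transporters, at 0.22 (SE 0.08), and Stxbp2, a factor of apical trafficking, at 0.22 (SE 0.09). The mean over the Stxbp2 probes gave 0.14. Calml4, a light chain within the complex that links microvilli, was the lower one at -0.32 (SE 0.10).

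All 18 transcription factors and nuclear receptors listed as enterocyte regulators were measured, and their median was -0.07. Maf had -0.61 (SE 0.16, limma adjusted p = 0.282; -0.34 with normexp) and Gata4, which specifies the proximal small intestine, -0.35 (SE 0.10, limma adjusted p = 0.318). The other 16 had unadjusted p of 0.05 or more.

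**Figure D5:**
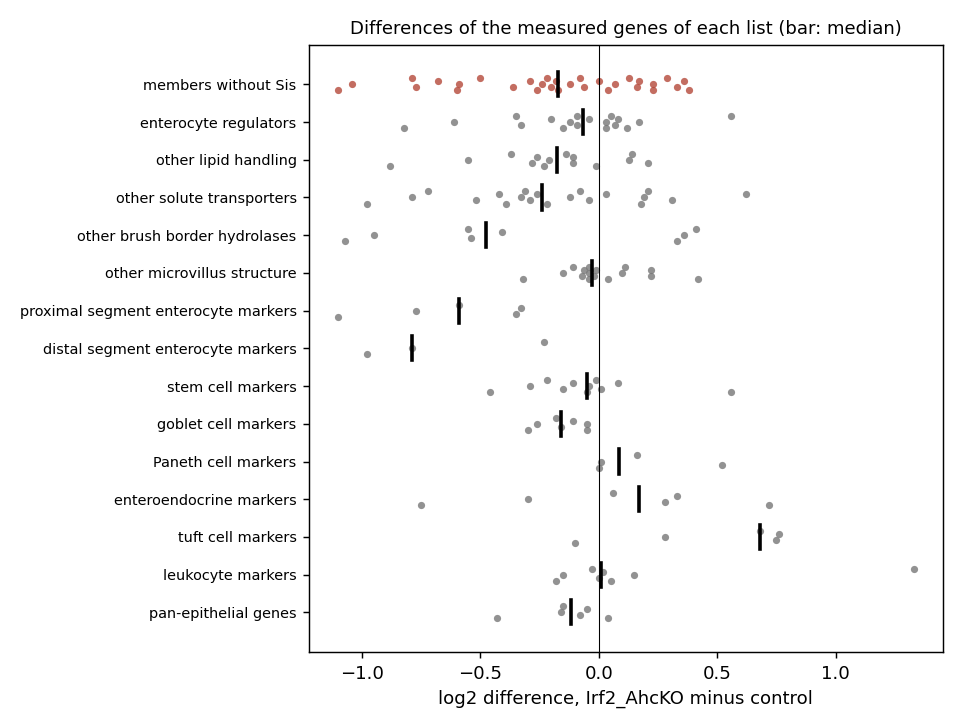
Log2 difference (Irf2_AhcKO minus control, horizontal axis) of each measured gene (points) in 15 lists, with the members in red and Sis not drawn, and black bars at the list medians. Medians of the proximal and distal enterocyte markers lie at -0.59 and -0.79, that of the stem cell markers at -0.05 and that of the tuft cell markers at 0.68.

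Markers of intestinal segments and of other cell types are shown with the members in the plot of list differences. The 5 proximal enterocyte markers measured were all negative, with a median of -0.59, and 3 of them (Fabp1, Apoa4 and Lct) are members. Their summed linear signal, on the log2 scale, was 2.96 to 3.29 on Irf2_AhcKO arrays and 3.47 to 3.87 on control arrays. That sum is mostly the Gata4 probe, which alone had 2.44 to 2.75 on Irf2_AhcKO arrays and 2.80 to 3.29 on control arrays. The 3 distal markers measured were also negative, with a median of -0.79. Fabp6 among them differed by -0.23 (SE 0.25), and the dim Slc51b and Slc51a were well above background on 2 of 4 Irf2_AhcKO and 4 of 4 control arrays. Colonocyte markers had both signs, with Aqp4 at -0.05, Slc26a3 at -0.39 and Car1 at 0.49. The part of these markers in the members' differences was not tested.

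The 7 goblet cell markers were all negative with a median of -0.16, and Fcgbp differed by -0.16, Spink4 by -0.18 and Clca1 by -0.11. Paneth cell markers had a median of 0.09 over 4 genes, with Itln1 at 0.00, Lyz1 at 0.01 and Mmp7 at 0.52. Enteroendocrine markers had a median of 0.17 over 6, with Chgb at 0.33, Chga at 0.72 and Sct at 0.28, while Gip was at -0.75 and Cck at -0.30. At an unadjusted p below 0.05, 1 of the 6 was higher (Chga, 16.7%, against 5.98% of all features) and 1 lower (Gip, 16.7%, against 5.75%). For the 5 tuft cell markers the median was 0.68, with Dclk1 at 0.68, Trpm5 at 0.75 and Pou2f3 at -0.10. Of the 5, 2 were higher at an unadjusted p below 0.05 (Dclk1 and Trpm5, 40%, against 5.98% of all features) and 0 lower. The Trpm5 groups did not overlap. None of these markers passed the threshold.

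Summed levels of the secretory lists overlapped between the groups, at 7.37 to 7.94 on Irf2_AhcKO arrays and 7.50 to 7.81 on control arrays for goblet markers, and at 1.99 to 3.45 on Irf2_AhcKO arrays and 1.69 to 2.27 on control arrays for tuft markers. The 8 leukocyte markers measured had a median of 0.01, and their sum was 6.63 to 8.0 on Irf2_AhcKO arrays and 6.66 to 7.94 on control arrays. Cd8a and Cd2 had no probe that was kept. The leukocyte sum is mostly the Itgam probe, which alone had 6.58 to 7.98 on Irf2_AhcKO arrays and 6.62 to 7.92 on control arrays. Itgam differed by -0.03, Lyz2 by -0.15 and Cd3e by 0.15. The B cell gene Cd79b was the 1 leukocyte marker with an unadjusted p below 0.05, at 1.33 (SE 0.28, limma adjusted p = 0.189), with groups that did not overlap. Its probe was well above background on 4 of 4 Irf2_AhcKO and 2 of 4 control arrays. Gip, Cck and Cd79b are named here after their values were seen. Mesenchymal and endothelial markers (5 measured) had a median of -0.25, with Kdr at 0.00, Col1a2 at -0.02 and Vim at -0.25. Genes shared by all epithelial cells had a median of -0.12 over 6, with Epcam at -0.16, Krt18 at 0.04 and Krt19 at -0.43 (SE 0.10, limma adjusted p = 0.236). Immediate early genes, which tissue dissociation can induce, had a median of -0.08, with Egr1 at 0.01, Fos at -0.17 and Jun at 0.19.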

How the data were processed

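RNA was extracted on columns, amplified with a whole-transcriptome kit and labelled with Cy3, per the labels' protocols. Per the file headers, Agilent Feature Extraction 11.5.1.1 made the deposited intensity, a processed signal with background subtracted and trends removed. The series table that the authors deposited equals this intensity times 1 constant per array (6.41 to 6.90, its basis not given in the sources used here), linear and not centred, with column medians of 207 to 246.

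Probes (55681) were named by accession through a RefSeq gene table of GRCm38.p6, which named 28331 with 1 symbol each, none with several, and left 27350 unnamed. From log2 intensities the 75th percentile of the array's 59305 non-control spots was subtracted. Replicate spots of 1 probe were averaged, outlier spots left out. Probes well above background on at least 4 of 8 arrays were kept, and a gene was represented by its brightest kept probe, with 15114 of the 25404 features named. Olfm4, Enpp7, Defa17, Defa24 and Pla2g2a had no named probe and were not analysed here. The comparison used lmFit and eBayes of limma 3.58.1 (R 4.3.3), two-sided, with a slide term, with Benjamini-Hochberg adjustment over all features and a threshold of 0.05.

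Deviations from the group means correlated between same-numbered arrays (r across features 0.46, 0.49, 0.52 and 0.53). Same-numbered arrays share a slide and the slide was not removed from these deviations, so the correlations do not show pairing. An alternative fit still took the replicate number as a block. The labels do not say what a number shares, and numbers are nested in slides. Within a group and slide, arrays correlated at 0.986 to 0.988. Alternatives tried were normexp (offset 50), quantile normalization, the series table, no filter and a filter on all 8 arrays, the mean over probes, no slide term, the block, each slide alone and leaving out each array. The files hold no mean pixel signal, so normexp used the median pixel signal.

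The members and lists were chosen with earlier results of these data known. Members with an unadjusted p below 0.05, with groups that do not overlap or with 1 outlying array are given with every array's value. Of the other pathway lists, up to 3 genes per direction by lowest unadjusted p below 0.05 are named, and of the marker lists the 3 of highest mean.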

Additional observations from a re-analysis of the deposited data

Results flagged for a closer look

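Across 64 groups of 4 arrays (32 members in 2 groups), the highest or lowest array stood apart in 3 by Dixon's ratio at its 95% critical value, where chance alone gives about 1 in 20 groups. All 3 fell on control replicate 4. Sis stood at 10.42 on that array, with its nearest control array at -0.79 and a ratio of 0.922. Abcg5 stood at -0.74, with the next control array at -1.59 and a ratio of 0.881. Slc3a1 stood at -0.86, below the next control array at -0.50, with a ratio of 0.86. The array was thus high for 2 members and low for 1.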

How the results depend on the processing

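The number of features past the threshold depended on the processing. Against 25, it was 133 with normexp background correction, 7 with no filter on dim probes, 46 with a filter on all 8 arrays, 0 on slide 1 alone and 0 on slide 2 alone, and between 0 and 25 with 1 array left out. With the replicate block, which pairs same-numbered arrays, it was 0 (limma), with 3293 features at an unadjusted p below 0.05. The count of members past the threshold was 0 in every alternative but normexp, where it was 1 (Fabp2). The members lower at an unadjusted p below 0.05, a count chosen after seeing the data, were 12, against 6 on slide 1 alone, 3 on slide 2 alone and between 7 and 11 with 1 array left out. The share of all features that was lower in this way also varied. It was 5.75% in the main fit, 4.4% on slide 1, 2.33% on slide 2 and 4.03% to 7.1% with 1 array left out. The cause of these shifts was not tested, beyond the fewer arrays on 1 slide. The median difference of the members lay between -0.24 and -0.13 in all alternatives. Several alternatives (the series table, no slide term, the block and the filters) leave the difference of a kept probe as it is in this balanced design. The mean over kept probes changes it only for genes with more than 1 such probe. Ush1c then moved from -0.24 to -0.18 and Stxbp2 from 0.22 to 0.14, while Mme moved from -0.55 to -0.86. With that mean 22 members were negative in place of 20. Over the 12 that recompute the difference for every gene (normexp, quantile normalization, each slide alone and each array left out), the 17 members given by array kept their sign in all 204 values, as did Irf2 and the 15 other pathway genes named in all 192. All of these but Irf2 were chosen by their values on the same arrays, so the kept signs follow largely from that choice. Lct was not tested under the filter on all 8 arrays. Dim probes such as those of Lct, Slc51a and Slc51b limit what can be read from their differences.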
